A study of Mus musculus with 4 samples.

Results

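The genes described here encode the machinery of oxidative phosphorylation in mouse embryonic stem cells, in the nuclear and in the mitochondrial genome. They were found by symbol among protein-coding genes of build GRCm38 (GENCODE vM21): names that begin with Nduf followed by a, b, c, s or v, the succinate dehydrogenase genes Sdha to Sdhd, and names that begin with Uqcr, Cox4 to Cox8, Atp5, or mt-Nd, mt-Co, mt-Cytb and mt-Atp. The patterns matched 107 protein-coding genes, and a mean of at least 1 TPM over the 4 libraries kept 105 of them, out of 12643 protein-coding genes at that level. TPM is an abundance scaled for transcript length and depth. The genes were thus chosen by name and selected on their mean level over all libraries, which is given as a description only. Just inside it lay Cox7b2 (1.36 TPM), a second locus annotated as Atp5o with the identifier ENSMUSG00000116933 (1.76 TPM) and Cox8c (1.96 TPM), and just outside it Cox6a2 (0.203 TPM) and Cox8b (0.0675 TPM). Cox8c reached the mean through the fusion libraries, and Cox7b2 reached it through the wild-type libraries.

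Oxidative phosphorylation takes electrons from NADH and succinate through complexes I and II to ubiquinone, on through complex III and cytochrome c, and to oxygen at complex IV. The proton gradient that complexes I, III and IV build drives ATP synthase, also called complex V. Complex II is encoded wholly in the nucleus, while the other complexes combine nuclear subunits with a small core encoded by the mitochondrial DNA, so that both genomes must supply matching parts. Embryonic stem cells hold immature mitochondria and are known to draw much of their ATP from glycolysis.

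Of the 105 genes, 51 belonged to complex I (44 nuclear and 7 mitochondrial), 4 to complex II, 9 to complex III (8 and 1), 21 to complex IV (18 and 3) and 20 to complex V (18 and 2). In all, 92 were nuclear and 13 mitochondrial, and 93 were structural subunits. The complex I set included 8 Ndufaf assembly factors. The other 4 were Cox7a2l, which joins complexes III and IV into supercomplexes, Ndufa4l2, Atp5s and the second Atp5o locus.

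Messenger RNA was sequenced from the mouse embryonic stem cell line EB3, kept undifferentiated on gelatin with LIF and without a feeder layer named in the labels. The fusion group was 2 libraries of EB3-derived cells that express NUP98-HOXA9, a fusion of a nucleoporin with a homeobox transcription factor known from acute myeloid leukaemia. The wild-type group was 1 library of EB3-derived cells with an empty vector and 1 library of the parental line. The labels give no promoter, dose or duration of expression for the fusion and do not say whether its libraries are separate clones or cultures of 1 clone, so the spread behind each p-value may be technical. The wild-type spread lies between 2 kinds of control, and only the empty-vector library controls for the vector.

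The libraries held 19021386 to 21151729 expected counts. All 12 embryonic stem cell markers examined, among them Pou5f1, Nanog and Zfp42, reached 1 TPM in every library, and 1 of them, Lin28a, was lower in the fusion libraries past the threshold used below. All 9 primitive endoderm markers rose past that threshold. Their summed level was 210 and 217 TPM in the fusion libraries, against 23.3 TPM in the parental and 19.1 TPM in the empty-vector library, and their part in the results below was not tested. Of 8 fibroblast markers 6 were tested and 0 called (summed level 29.9 and 47.3 TPM in the fusion libraries, 32.4 TPM in the parental and 21.6 TPM in the empty-vector library). Of 5 neural markers 1 was called, Sox1, which was higher (summed level 90.4 and 106 TPM in the fusion libraries, 94.8 TPM in the parental and 110 TPM in the empty-vector library). Pax6, Nes and Map2 went the other way without a call (log2 fold change of fusion over wild type -2.08, -1.33 and -1.30). Tubb3, at 69.0 to 91.2 TPM, made up most of the sum and gave 0.02. In bulk RNA, fewer cells of a type and less RNA per cell cannot be told apart.

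The highest levels of the set were those of mitochondrial genes, and for 6 of the 13 the deposited values covered only a part of the reads. Mouse chromosome 1 carries copies of a stretch of mitochondrial DNA, annotated as unprocessed pseudogenes, which lie next to each other on the minus strand. The copy of mt-Co2, which encodes the copper-binding subunit of complex IV, is Gm28661 at chr1:24614885-24615565. It was identical to mt-Co2 (chrM:7013-7696) over all 681 of its bases and lacked only the last 3 bases of the gene. The ends of both are shown because these 3 bases, in capitals, are the only letters by which the sequences differ; here and for the pairs that follow, sequences are the GENCODE vM21 transcripts, read along the gene.
mt-Co2: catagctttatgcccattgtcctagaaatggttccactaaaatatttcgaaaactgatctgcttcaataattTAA
Gm28661: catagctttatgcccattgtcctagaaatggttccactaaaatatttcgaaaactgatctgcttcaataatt

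The copy of mt-Nd3, a membrane subunit of complex I, is Gm28438 (chr1:24612775-24613119) and differed from the gene (chrM:9459-9806) by 1 substitution, T3C, with positions counted from the first base of the gene and the gene's base first. That of mt-Co1, the catalytic subunit of complex IV, is Gm29216 (chr1:24615706-24616197), which covers only the last 492 of the 1545 bases of the gene (chrM:5328-6872). Its 6 substitutions (T1056A, C1057T, A1059G, A1060G, C1062A and A1066T) all lie at its start, and the 479 bases that follow are identical. The first 75 bases of each copy are shown beside the matching bases of the gene, with the differing bases in capitals. These are bases 1 to 75 of mt-Nd3 and 1054 to 1128 of mt-Co1.
mt-Nd3: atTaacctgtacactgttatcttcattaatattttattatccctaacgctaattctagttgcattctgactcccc
Gm28438: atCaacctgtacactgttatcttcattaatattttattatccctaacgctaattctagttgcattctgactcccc
mt-Co1: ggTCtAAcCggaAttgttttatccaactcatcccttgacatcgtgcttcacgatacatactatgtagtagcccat
Gm29216: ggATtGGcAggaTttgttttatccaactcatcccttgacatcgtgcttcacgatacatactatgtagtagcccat

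The copies of mt-Atp6 (Gm10925), mt-Co3 (Gm28437) and mt-Nd4l (Gm10222) were identical to their genes over their whole length of 678, 783 and 294 bases. A read of 75 bases, the length that the deposited effective lengths imply, can therefore rarely be told apart between gene and copy. Of all 75-base windows of the gene, the share also found in another annotated transcript was 99.9% for mt-Co3, 99.5% for mt-Co2 and for mt-Atp6, 98.7% for mt-Nd4l and 97.8% for mt-Nd3. It was 61.5% for mt-Nd4, whose copy Gm28439 held 0, 34.5, 0 and 0 counts (fusion 1, fusion 2, parental, empty vector), and 39.8% for mt-Co1.

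The deposited counts of such pairs were split very unequally. The mt-Co2 gene held 0.852% and 0.378% of the counts of gene and copy together in the fusion libraries, 0.717% in the parental library and 1.69% in the empty-vector library, which left nearly all of them on the pseudogene. The mt-Atp6 gene held 2.05% and 1.65% in the fusion libraries, 2.80% in the parental and 2.18% in the empty-vector library. For mt-Co3 the shares were 5.72% and 5.22% in the fusion libraries, 4.42% in the parental and 1.60% in the empty-vector library. The gene's share was larger for mt-Nd3 (10.7% to 19.9% over the 4 libraries), mt-Nd4l (67.6% to 78.6%) and mt-Co1 (84.5% to 85.3%). Values of the gene alone are thus uncertain for these 6 genes, and each is given below also with the counts of its copy added, an alternative chosen after seeing the data.

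As deposited, mt-Co2 ranked last of the 13 genes, with a mean of 111 TPM, and with its copy it ranked second, at 11884 on the same TPM scale. The highest of the 13 was mt-Co1, at 10326 TPM alone and 12182 with its copy. With copies added, mt-Atp6 (10768), mt-Atp8 (8403) and mt-Co3 (7681) followed, so the subunits of complexes IV and V held the first 5 places. The cytochrome b gene mt-Cytb stood at 3821 TPM, and the complex I genes ranged from 4493 TPM for mt-Nd1 to 168 TPM for mt-Nd6. The gene mt-Nd6 is the only one of the 13 read from the other DNA strand, and its message is known to lack a long poly(A) tail, which the library kit selects for. Neighbouring genes also overlap in sequence, mt-Atp8 with mt-Atp6 by 43 bases, mt-Nd5 with mt-Nd6 on the opposite strand by 14, mt-Nd4l with mt-Nd4 by 7 and mt-Atp6 with mt-Co3 by 1. Whether the counting used strand is not stated in the labels or headers.

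**Figure D1:**
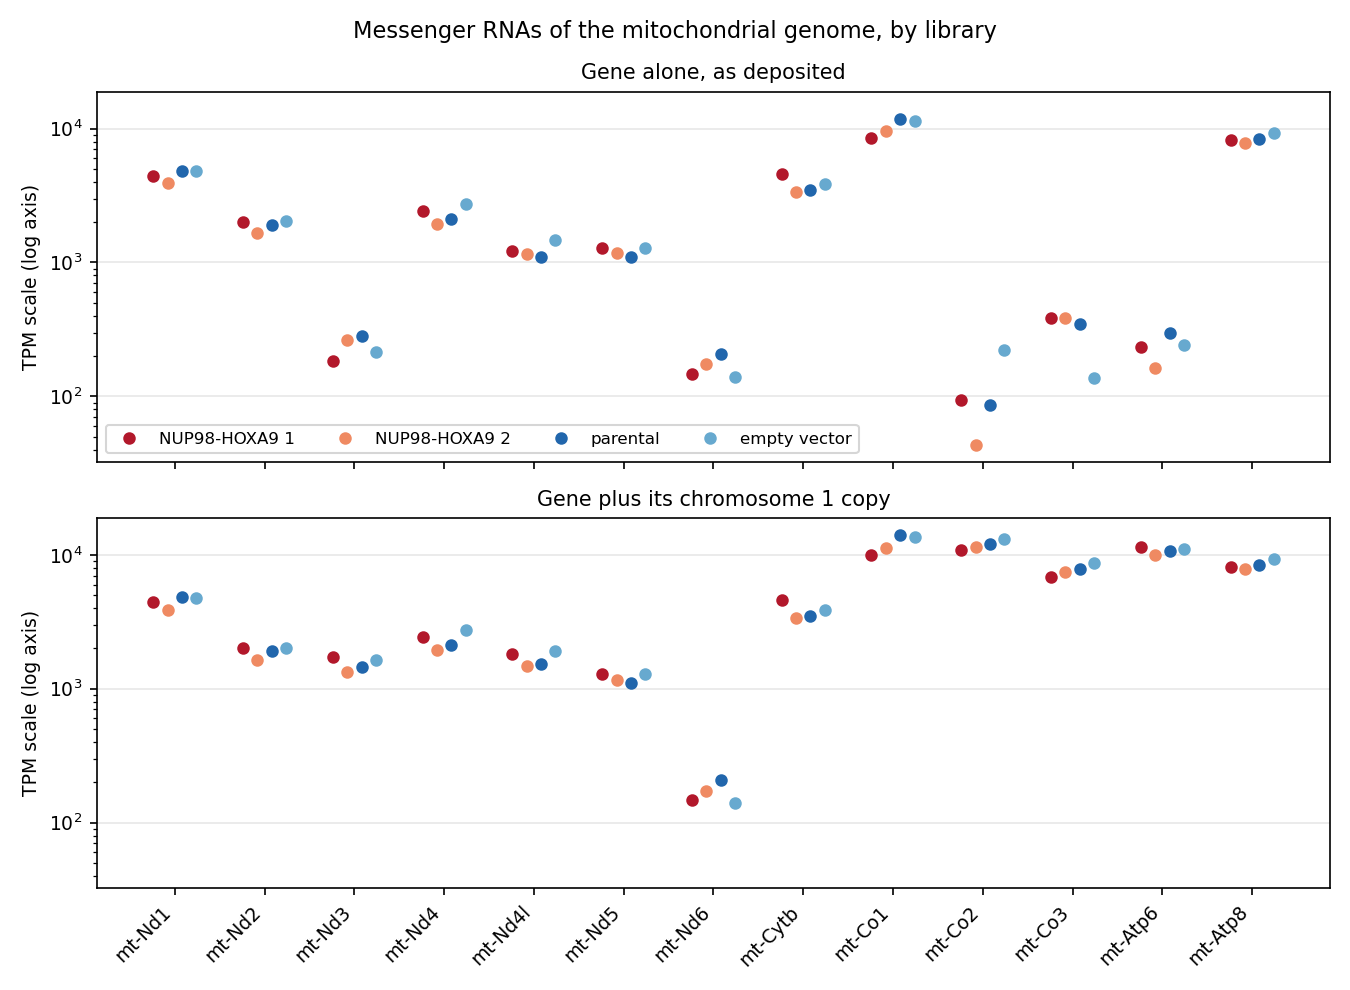
Levels of the 13 protein-coding genes of the mitochondrial genome in each library, on a logarithmic TPM scale, as deposited (top) and with the counts of the chromosome 1 copy added (bottom). The gene mt-Co2 moves from last place, with 43.4 to 221 TPM, to second, with 10937 to 13067, once its copy is added; mt-Nd6 is then the lowest.

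Summed over the 13 genes, the mitochondrial messages took a smaller share of the counts in the fusion libraries. Alone, the 13 genes held 2.08% and 1.98% of all expected counts in the fusion libraries, 2.44% in the parental and 2.40% in the empty-vector library. The 6 chromosome 1 copies, with Gm28439 included, held another 1.41% and 1.42% in the fusion libraries, 1.62% in the parental and 1.65% in the empty-vector library. Together they came to 3.49% and 3.40% in the fusion libraries, 4.06% in the parental and 4.05% in the empty-vector library. Both fusion libraries lay below both wild-type libraries on each of these measures. The mean difference was -0.61 percentage points with the copies (3.44% ± 0.0684 in the fusion and 4.05% ± 0.00933 in the wild-type group, SD, n = 2 each) and -0.389 points without them. These sums weigh mt-Co1 most, which alone held 168130 and 202284 counts in the fusion libraries. It held 250541 counts in the parental and 219161 in the empty-vector library, so much of the difference without the copies lay in mt-Co1. The share without mt-Co1 was not computed, and the smaller share as deposited cannot be read as common to the other genes.

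With 2 libraries against 2, an exact permutation test cannot reach 0.05, and the share is given as a description. The 92 nuclear genes held 1.18% and 1.07% in the fusion libraries, 1.09% in the parental and 1.06% in the empty-vector library, and the fusion values lay on both sides of the parental one. As deposited, without the copies, 58.9% and 60.2% of the summed TPM of all 105 genes came from the mitochondrial genome in the fusion libraries. The share was 64.1% in the parental and 64.6% in the empty-vector library, and it leaves out reads counted on the copies. Of all TPM, mitochondrial genes and copies together held 6.95% and 6.74% in the fusion libraries, 7.52% in the parental and 7.94% in the empty-vector library. The nuclear genes held 2.35%, 2.09%, 2.02% and 2.07% in the same order.

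**Figure D2:**
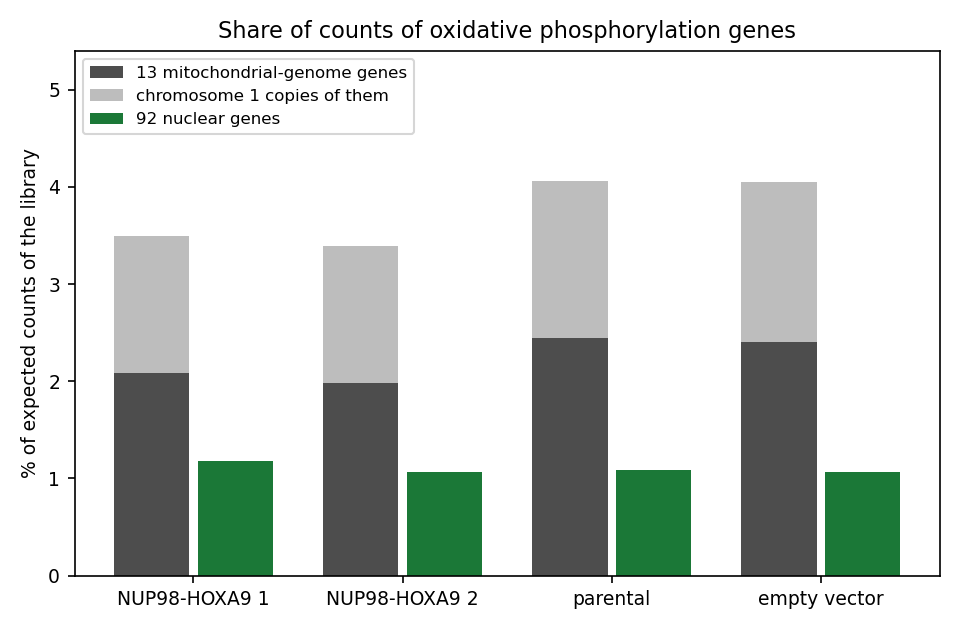
Share of each library's expected counts, in percent, taken by the 13 mitochondrial genes (dark grey), their 6 chromosome 1 copies with Gm28439 (light grey, stacked) and the 92 nuclear genes (green). The stacked bar reaches 3.49% and 3.40% in the NUP98-HOXA9 libraries, 4.06% in the parental and 4.05% in the empty-vector library.

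Gene by gene, none of the 13 passed the test between the fusion and wild-type groups, with or without copies. Fold changes are of fusion over wild type on a log2 scale, from edgeR's quasi-likelihood test on the rounded expected counts, with Benjamini-Hochberg adjustment over the 16511 genes tested and a threshold of 0.05 for the adjusted p. With copies added, 12 of the 13 log2 fold changes were negative, from -0.49 to 0.01 with a median of -0.24, and edgeR's adjusted p ran from 0.177 to 0.986. At an unadjusted p under 0.05 there was 1 gene, and DESeq2's Wald test called 0 of the 13 as deposited. Over all genes tested the median was -0.0034.

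The largest of these differences was that of mt-Co1. With its copy it had 9875 and 10873 CPM (counts scaled for depth) in the fusion libraries, 15435 CPM in the parental and 13756 CPM in the empty-vector library. The groups did not overlap, at a log2 fold change of -0.49 (SE 0.17, edgeR's adjusted p = 0.177, unadjusted p = 0.025). The gene alone gave -0.48.

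The other genes of complex IV turned on how gene and copy were counted. With its copy, mt-Co2 had 4522 and 4599 CPM in the fusion libraries, 5487 CPM in the parental and 5517 CPM in the empty-vector library, a log2 fold change of -0.27 (SE 0.16). Alone it gave -1.25 (SE 0.49). The gene mt-Co3, a core subunit without a metal centre, changed its sign. With its copy it had 3259 and 3461 CPM in the fusion libraries, 4178 CPM in the parental and 4245 CPM in the empty-vector library, at -0.33 (SE 0.16), whereas alone it gave 0.54 (SE 0.41). Left without the parental library, mt-Co3 alone passed the threshold as higher (log2 fold change 1.42, edgeR's adjusted p = 0.0173); the wild-type group is then 1 library, assumed to vary like the fusion libraries.

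In complex V, mt-Atp6, the subunit that forms the proton channel beside the c-ring, had 4707 and 3961 CPM with its copy in the fusion libraries, 4804 CPM in the parental and 4659 CPM in the empty-vector library. The groups overlapped, and the log2 fold change was -0.13 (SE 0.18), against -0.54 for the gene alone. The gene mt-Atp8, which encodes a small stabilising subunit and has no such copy, had 719 and 671 CPM in the fusion libraries, 812 CPM in the parental and 831 CPM in the empty-vector library, a log2 fold change of -0.24 (SE 0.16).

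In complex III, mt-Cytb had 3322 and 2361 CPM in the fusion libraries, 2795 CPM in the parental and 2846 CPM in the empty-vector library. The fusion libraries lay on both sides of the wild-type ones, and the log2 fold change was 0.01 (SE 0.21).

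The 7 mitochondrial genes of complex I encode the membrane arm that pumps protons. Their log2 fold changes, with copies for mt-Nd3 and mt-Nd4l, ran from -0.31 to -0.07. The group's most abundant gene, mt-Nd1, had 2670 and 2256 CPM in the fusion libraries, 3190 CPM in the parental and 2923 CPM in the empty-vector library (-0.31, SE 0.18). The fusion values were the lowest for mt-Nd1 and also for mt-Nd2, with 1315 and 1045 CPM in the fusion libraries, 1377 CPM in the parental and 1354 CPM in the empty-vector library (-0.21, SE 0.18). The groups overlapped for mt-Nd3 (-0.12, SE 0.20), mt-Nd4 (-0.26, SE 0.20), mt-Nd4l (-0.18, SE 0.19), mt-Nd5 (-0.07, SE 0.17) and mt-Nd6 (-0.24, SE 0.26). Over the whole mitochondrial set with copies, both fusion libraries were below both wild-type libraries for 6 of 13 genes, and above them for 0. Among all 16511 genes tested, the share in which both were below was 24.2%, and among genes averaging 10 CPM or more it was 29.0%.

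Most of the nuclear genes stood at like levels in both groups. All 105 genes entered the fit, and 1 passed the threshold, Cox7a1, which was higher in the fusion libraries; 0 were lower. That is 1 in 105 against 3.42% of all genes tested (2.83% higher and 0.581% lower), and the share was 3.29% among genes of at least 10 CPM. At an unadjusted p under 0.05, 4 genes were higher and 3 lower, against 20.1% of all genes in either direction, and DESeq2's Wald test also called Cox7a1 alone, beside 7.73% of the genes it tested. Against the parental library alone edgeR called 1 of the 105, Ndufa4l2, beside 0.63% of all genes, and against the empty-vector library alone 0, beside 0.497%. For 96 of the 105 genes the log2 fold change lay within 0.5 of 0. The median was -0.04 over the set and -0.02 over the 92 nuclear genes, beside -0.0034 over all genes and -0.06 over genes of at least 10 CPM. Both fusion libraries were above both wild-type libraries for 15 of the 105 genes and below them for 17, while 27.1% of all genes tested were above and 24.2% below.

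**Figure D3:**
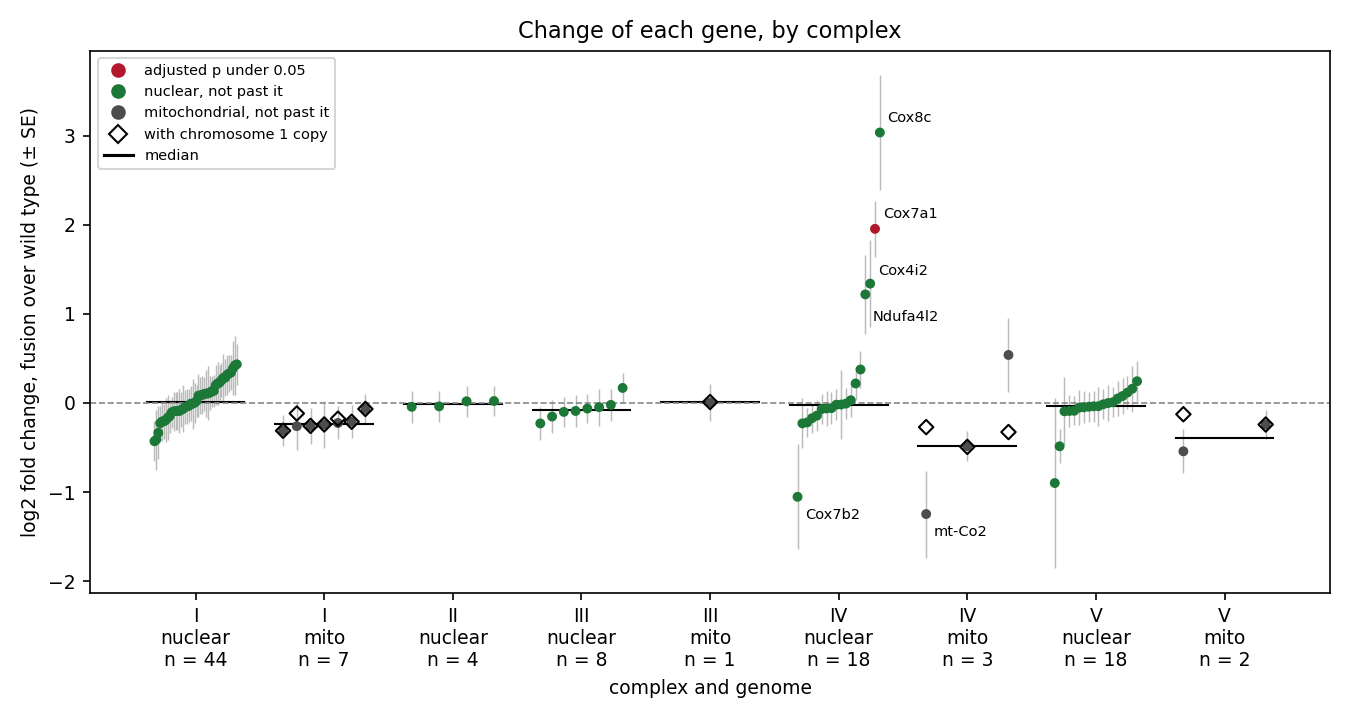
Log2 fold change of fusion over wild type for each of the 105 genes, by complex and genome, with bars of 1 SE and black lines for medians; open diamonds are mitochondrial genes with their chromosome 1 copy. Nearly all nuclear genes lie within 0.5 of 0, apart from isoform genes of complex IV and the second Atp5o locus of complex V (-0.90). Of the isoform genes, Cox7a1 (red, 1.95) passed the threshold.

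Complex I takes electrons from NADH. The log2 fold changes of its 44 nuclear genes had a median of 0.01 and ran from -0.43 to 0.43. The most abundant was the accessory subunit gene Ndufa7, with 450 and 384 TPM in the fusion libraries, 344 TPM in the parental and 339 TPM in the empty-vector library (log2 fold change 0.14, SE 0.18). The largest value was that of Ndufa8, another accessory subunit, with 117 and 86.4 TPM in the fusion libraries, 68.4 TPM in the parental and 71.9 TPM in the empty-vector library. The fusion values were the higher ones, but the difference of 0.43 (SE 0.23) missed the threshold (edgeR's adjusted p = 0.351).

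The smallest was that of the assembly factor Ndufaf4, with 22.3 and 20.5 TPM in the fusion libraries, 27.6 TPM in the parental and 26.1 TPM in the empty-vector library (-0.43, SE 0.23, edgeR's adjusted p = 0.355). The least abundant, Ndufaf5, an assembly factor that modifies the subunit Ndufs7, had 10.3 and 10.2 TPM in the fusion libraries, 12.1 TPM in the parental and 12.1 TPM in the empty-vector library (-0.33, SE 0.30). Among the 36 nuclear structural subunits, 9 had both fusion libraries above both wild-type libraries and 2 had both below, beside 21.3% and 29.0% among genes of at least 10 CPM. Ndufb4 is among the 9, and 17.2% of its windows were shared with other transcripts, mainly the pseudogene Ndufb4c. Over the 4 libraries Ndufb4 held 105 to 188 counts and Ndufb4c 791 to 1045. The catalytic core moved little: Ndufs1, which carries iron-sulfur clusters, stood at -0.04 (SE 0.19), and Ndufv1, which binds NADH, at -0.08 (SE 0.19).

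Complex II, succinate dehydrogenase, had the narrowest spread. The flavoprotein gene Sdha had 155 and 147 TPM in the fusion libraries, 135 TPM in the parental and 152 TPM in the empty-vector library, a log2 fold change of 0.02 (SE 0.16). The iron-sulfur subunit Sdhb gave -0.04 (SE 0.18), and the membrane anchors Sdhc and Sdhd gave -0.04 (SE 0.18) and 0.02 (SE 0.17). The groups overlapped for all 4 genes, and the most abundant was Sdhc, at a mean of 190 TPM.

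Complex III passes electrons on to cytochrome c. The 8 nuclear genes had a median log2 fold change of -0.08, with 7 of them negative. The hinge protein gene Uqcrh was the most abundant, with 449 and 415 TPM in the fusion libraries, 397 TPM in the parental and 463 TPM in the empty-vector library. The Rieske iron-sulfur protein gene Uqcrfs1 was the least, with 87.6 and 98.6 TPM in the fusion libraries, 99.9 TPM in the parental and 91.6 TPM in the empty-vector library. Neither differed beyond its error (-0.10, SE 0.17, for Uqcrh and -0.15, SE 0.18, for Uqcrfs1). The ends of the range were the small subunit genes Uqcrb, at 0.17 (SE 0.17), and Uqcrq, at -0.23 (SE 0.18).

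In complex V, ATP synthase, the 18 nuclear genes had a median of -0.04. The catalytic beta subunit gene Atp5b was the most abundant nuclear gene of the whole set, with 1992 and 1926 TPM in the fusion libraries, 1851 TPM in the parental and 1790 TPM in the empty-vector library. The fusion values were the higher ones in TPM, but in CPM the groups overlapped, and its log2 fold change was -0.02 (SE 0.17). Atp5a1, the alpha subunit beside it, gave -0.09 (SE 0.16).

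Atp5g1, Atp5g2 and Atp5g3 encode the same mature c-ring protein with different import sequences. Their shares of the summed TPM of the 3 genes, in this order, were 35.1%, 24.9% and 40.1% in fusion library 1 and 31.0%, 25.3% and 43.8% in fusion library 2. They were 30.7%, 28.0% and 41.3% in the parental library and 35.8%, 28.5% and 35.7% in the empty-vector library, so for Atp5g1 and Atp5g3 the groups overlapped, while for Atp5g2 both fusion shares were below both wild-type shares. Of the windows of Atp5g2, 35.8% were shared with other transcripts, mainly the pseudogene Gm10175, which held 1303 to 2275 counts. Its level is therefore uncertain.

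The largest value of complex V was that of Atp5g3, at 0.24 (SE 0.23). Among genes at 10 TPM or more, the smallest was that of Atp5l, subunit g of the membrane part, with 181 and 203 TPM in the fusion libraries, 204 TPM in the parental and 275 TPM in the empty-vector library. Its log2 fold change was -0.49 (SE 0.19, unadjusted p = 0.0371, edgeR's adjusted p = 0.216). Reads of Atp5l are partly shared with the processed pseudogene Gm10221 on chromosome 5, which held 1591 and 1518 counts in the fusion libraries, 1737 in the parental and 2141 in the empty-vector library, more than Atp5l itself, which held 1156 and 1309 counts in the fusion libraries, 1424 in the parental and 1708 in the empty-vector library. The second Atp5o locus had the lowest level, with 2.39 and 0.23 TPM in the fusion libraries, 2.59 TPM in the parental and 1.82 TPM in the empty-vector library, and 83.8% of its windows were shared. Its log2 fold change of -0.90 had an SE of 0.96.

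Complex IV, cytochrome c oxidase, held the 1 called gene, 1 of its 18 nuclear genes, and their median log2 fold change was -0.02. Several of its subunits come in pairs, one isoform expressed widely and the other known from particular tissues or from low oxygen. The widely expressed members stayed close to 0: Cox6a1 gave a log2 fold change of -0.07 (SE 0.17), Cox6b1 -0.06 (SE 0.19), Cox7a2 -0.02 (SE 0.18), Cox8a 0.03 (SE 0.19) and Ndufa4 -0.01 (SE 0.18). Cox4i1, which encodes the regulatory subunit that can bind ATP, was the most abundant nuclear gene of the complex, with 724 and 877 TPM in the fusion libraries, 1082 TPM in the parental and 651 TPM in the empty-vector library. Its fusion values lay between the wild-type ones (-0.23, SE 0.28).

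Of the 6 second isoforms at 1 TPM or more (Cox4i2, Cox6b2, Cox7a1, Cox7b2, Cox8c and Ndufa4l2), 5 had a log2 fold change beyond 1, 4 of them higher in the fusion libraries and 1 lower. The only other gene of the 105 beyond 1 was mt-Co2, counted without its copy. These genes were singled out by their known isoform families, with their values in view, so their number carries no test. Cox8c and Cox7b2 also passed the filter on low counts only through the group in which they were higher.

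Cox7a1, at chr7:30184144-30186078 on the plus strand, encodes the subunit 7a isoform known from heart and skeletal muscle. It had 64.8 and 62.2 TPM in the fusion libraries, 13.6 TPM in the parental and 17.1 TPM in the empty-vector library, or 284 and 292 counts in the fusion libraries, 64 in the parental and 71 in the empty-vector library. The groups were far apart and tight within: 63.5 ± 1.85 TPM in the fusion and 15.3 ± 2.47 TPM in the wild-type group (SD, n = 2 each). The log2 fold change was 1.95 (SE 0.31), a fold of 3.88, with edgeR's adjusted p = 0.0286, and 0 of its windows were shared with another transcript.

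The widely expressed partner of Cox7a1, Cox7a2, was still the more abundant isoform, with 284 and 253 TPM in the fusion libraries, 239 TPM in the parental and 272 TPM in the empty-vector library. Cox7a1 made up 18.6% and 19.7% of the TPM of both isoforms in the fusion libraries, 5.36% in the parental and 5.91% in the empty-vector library. The fold change of Cox7a1 kept its size when any library was left out (1.86 to 2.02), but its call did not hold in every case. Its adjusted p in edgeR was 0.0403 without the empty-vector library, 0.0542 without the parental library, 0.124 without fusion library 1 and 0.0606 without fusion library 2. It was 0.0947 against the parental library alone and 0.121 against the empty-vector library alone.

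Markers of heart and skeletal muscle were at low levels, at most 8.18 TPM for Myh6, and Tnnt2, Actc1 and Myog were too low to be tested. Of 6 such genes (Myh6, Myh7, Tnnt2, Actc1, Myog and Ckm), 2 reached 1 TPM in every library, 3 entered the fit and 0 were called. Their summed level was 9.97 and 9.29 TPM in the fusion libraries, 7.17 TPM in the parental and 12.1 TPM in the empty-vector library. Cox6a2 and Cox8b, the muscle isoforms of the other small subunits, were at or near 0: Cox6a2 had 1 and 3 counts in the fusion libraries, 3 in the parental and 0 in the empty-vector library, and Cox8b had 0 counts in all libraries but the empty-vector one, which had 1.

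The promoters of Cox7a1 and Cox7a2 are shown because this isoform pair carries the called change. Both are from RefSeq (GRCm38.p6), from 250 bases before to 50 after the annotated start, written along the gene's strand with every CpG in capitals; that of Cox7a1 lies at chr7:30183921-30184220 on the plus strand and that of Cox7a2 at chr9:79759804-79760103 on the minus strand.
Cox7a1: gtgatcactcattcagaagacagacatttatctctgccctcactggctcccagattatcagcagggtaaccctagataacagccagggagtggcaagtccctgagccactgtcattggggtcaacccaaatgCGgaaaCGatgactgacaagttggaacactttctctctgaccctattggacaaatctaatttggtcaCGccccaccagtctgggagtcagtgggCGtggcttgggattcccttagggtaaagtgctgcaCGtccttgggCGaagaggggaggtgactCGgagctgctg
Cox7a2: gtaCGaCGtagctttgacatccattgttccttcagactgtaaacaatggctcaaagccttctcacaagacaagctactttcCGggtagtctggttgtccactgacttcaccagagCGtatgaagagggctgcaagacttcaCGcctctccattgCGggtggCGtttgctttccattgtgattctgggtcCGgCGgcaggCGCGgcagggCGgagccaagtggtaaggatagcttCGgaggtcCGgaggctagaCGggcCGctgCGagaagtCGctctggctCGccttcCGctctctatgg

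The Cox7a1 window held 7 CpG and that of Cox7a2 20, while the median was 19 over the 73 of 92 nuclear genes that had an entry, 14 over all 16512 protein-coding genes with one, and 22 over those of at least 10 CPM. No entry was found for Cox4i2, Cox8c or Ndufa4l2. Motifs of factors known to drive respiratory genes were searched on both strands; none of the 3 motifs contains another. The letters of the NRF1 site, GCGCA and GCGC with any 1 base between, were found in 24.7% of the 73 promoters, those of an ETS site as bound by GABP, CCGGAAG, in 23.3% and those of a YY1 site, AAGATGGCG, in 9.59%. Over all promoters the shares were 6.91%, 12.3% and 2.03%, and over the promoters of genes of at least 10 CPM 12.3%, 21.5% and 3.99%. Neither window shown above held any of them, which says only that these letters are not in these windows.

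Ndufa4l2, known for its induction by low oxygen through HIF1, resembles Ndufa4, a subunit of complex IV. It had 121 and 129 TPM in the fusion libraries, 26.5 TPM in the parental and 77.2 TPM in the empty-vector library. Both fusion libraries were above both controls, which differed from each other by 1.51 on the log2 scale, and the log2 fold change was 1.22 (SE 0.44, edgeR's adjusted p = 0.190). The value depended on the control. Each of the next values sets the fusion against 1 wild-type library, which is assumed to vary like the fusion libraries. Against the parental library alone it was 2.17 and passed (edgeR's adjusted p = 0.0358), as it did without the empty-vector library (0.00513), and against the empty-vector library alone it was 0.65 (0.329). Ndufa4l2 made up 17.5% and 21.2% of the TPM of itself and Ndufa4 in the fusion libraries, 5.21% in the parental and 13.3% in the empty-vector library.

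Cox4i2, the isoform of subunit 4 known from lung and from low oxygen, was at a low level. It had 5.64 and 6.27 TPM in the fusion libraries, 2.67 TPM in the parental and 1.64 TPM in the empty-vector library, a log2 fold change of 1.34 (SE 0.49, edgeR's adjusted p = 0.193). The groups did not overlap, yet Cox4i2 stayed under 1% of the TPM of Cox4i1 and Cox4i2 together, with 0.773% and 0.710% in the fusion libraries, 0.246% in the parental and 0.251% in the empty-vector library.

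Cox8c, Cox6b2 and Cox7b2 are isoforms known from the testis, and they did not move together. Cox8c had 18 and 20 counts in the fusion libraries, 2 in the parental and 2 in the empty-vector library. The ratio of summed counts, 38 over 4 and scaled for depth, was 8.63 (95% exact binomial interval 3.11 to 33.3, counting error only). Cox8c reached both the mean of 1 TPM and the filter on low counts only through the fusion libraries, so these values are a description and count as no support. Its adjusted p in edgeR was 0.0529, and it lay past the threshold with no filter (0.0166) and with limma on log2 of TPM plus 1 (0.0438), but not with the DESeq2 Wald test (0.177).

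Cox6b2 was the most abundant of the 6 isoforms, with 193 and 172 TPM in the fusion libraries, 97.2 TPM in the parental and 252 TPM in the empty-vector library. The fusion libraries lay between the controls (-0.02, SE 0.38). Cox7b2 had 1.11 and 0.74 TPM in the fusion libraries, 1.79 TPM in the parental and 1.80 TPM in the empty-vector library. Both fusion values were lower, at -1.05 (SE 0.59, edgeR's adjusted p = 0.384). Its counts were 7 and 5 in the fusion libraries, 12 in the parental and 11 in the empty-vector library. Cox7b2 passed the filter on low counts only through the wild-type libraries, so its values also count as no support. Of 4 testis markers, Tnp1 was at 0 in every library and Prm1 reached at most 0.18 TPM, and their summed level was 0 and 0.72 TPM in the fusion libraries, 1.78 TPM in the parental and 3.46 TPM in the empty-vector library.

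**Figure D4:**
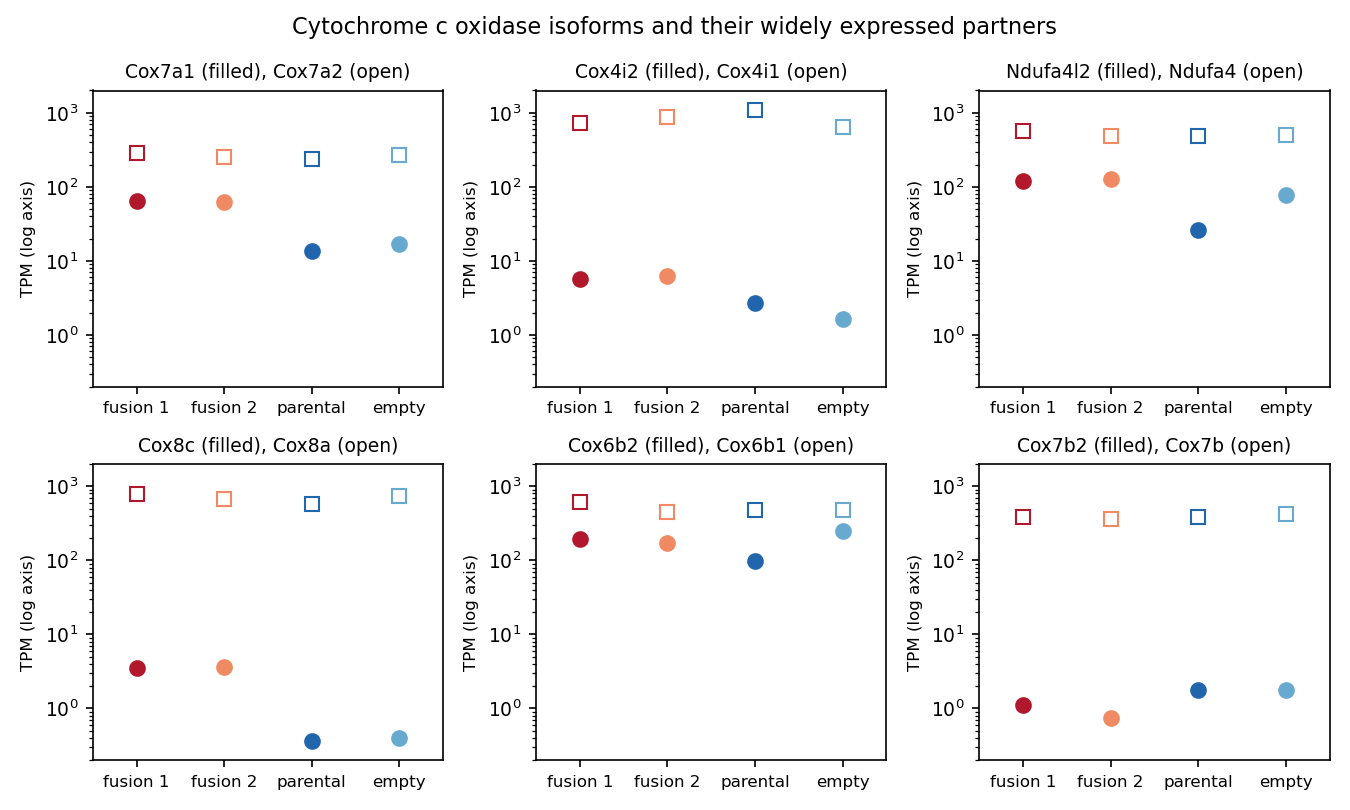
Levels of the 6 second isoforms (filled circles) and their widely expressed partners (open squares) in each library, in TPM on a logarithmic axis. Cox7a1 stands at 64.8 and 62.2 TPM in the fusion libraries, above 13.6 and 17.1 TPM in the controls, while its partner Cox7a2 lies between 239 and 284 TPM throughout.

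The fusion libraries differed from each other across the set. Fusion library 2 was below fusion library 1 in scaled counts for 89 of the 105 genes, with a median log2 ratio of -0.19, against 7974 of the 16511 genes tested and a median of 0.02. Among genes of at least 10 CPM, where nearly all of the set lies, it was below for 5247 of 9734 genes, with a median of -0.03. Nuclear genes of complex I had the lowest median of the nuclear groups, -0.26, followed by complex V with -0.20, complex IV with -0.17, complex III with -0.15 and complex II with -0.11. The median of the mitochondrial genes was -0.17. Between the controls, empty vector over parental, the median over the set was -0.07.

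**Figure D5:**
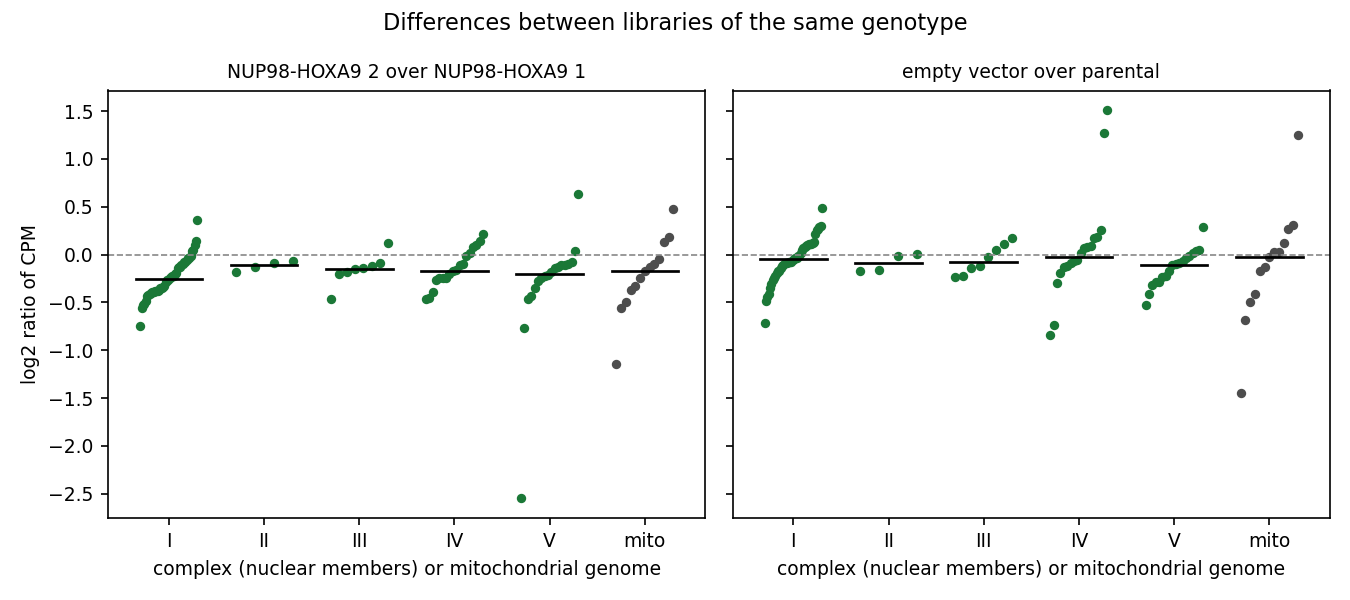
Log2 ratio of scaled counts between libraries of the same genotype, fusion 2 over fusion 1 (left) and empty vector over parental (right), for each gene by complex (nuclear, green) and for the mitochondrial genome (dark grey), with medians as lines. On the left most genes lie below 0, with medians from -0.26 to -0.11.

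Some values moved with a whole chromosome in 1 library. Genes of chromosome 8 (549 of at least 10 CPM) stood 0.41 above the mean of the other libraries on the log2 scale, by median, in the parental library. Cox4i1, Ndufb7 and Ndufa13 lie there, and the parental library was their highest, at 475 CPM for Cox4i1, 68.9 CPM for Ndufb7 and 93.4 CPM for Ndufa13. Genes of chromosome 15 stood 0.34 above in fusion library 1. Of the 4 genes that lie there, Ndufa6, Ndufb9 and Atp5g2 had their highest CPM in that library, and Cox6c did not. How far these shifts account for the values of the 7 genes was not tested.

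Genes that make, regulate or feed the respiratory chain but lie outside the naming rule were described by 6 lists. For cytochrome c, the mobile carrier between complexes III and IV, and cytochrome c1, 0 of 3 genes were called, and 0 had an unadjusted p under 0.05. Cycs had 116 and 85.8 CPM in the fusion libraries, 92.4 CPM in the parental and 85.8 CPM in the empty-vector library (log2 fold change 0.18, SE 0.20), and Cyc1 gave 0.17 (SE 0.24). Cyct, the testis form, was low, with 2.01 and 2.14 CPM in the fusion libraries, 0.938 CPM in the parental and 1.06 CPM in the empty-vector library; the groups did not overlap (1.05, SE 0.46, edgeR's adjusted p = 0.260). Among assembly factors of all 5 complexes, 0 of 44 tested were called, with a median of -0.11. The 2 most abundant were Cox17, a copper chaperone of complex IV, at 0.41 (SE 0.23), and Uqcc2, an assembly factor of complex III, at 0.30 (SE 0.25). At an unadjusted p under 0.05, 1 of the 44 was higher and 1 lower.

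Genes that maintain, transcribe and process mitochondrial DNA and its RNA had the lowest median of the 6 lists, -0.22, over 28 genes tested. Both fusion libraries were below both wild-type libraries for 16 of them and above for 2, beside 29.0% and 21.3% of genes of at least 10 CPM. Of these 28, 1 (3.57%, beside 3.42% of all genes) was called, Tefm, the elongation factor of the mitochondrial RNA polymerase. Tefm had 9.52 and 12.3 CPM in the fusion libraries, 28.1 CPM in the parental and 25.5 CPM in the empty-vector library, a log2 fold change of -1.30 (SE 0.26) with edgeR's adjusted p = 0.0492. The groups did not overlap. The list held 0 calls when any library was left out, against either control alone, with library totals as the scale, with a fit that is not robust, and with limma.

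Other genes of that list did not pass. The transcription and packaging factor Tfam had 68.1 and 70.4 CPM in the fusion libraries, 91.9 CPM in the parental and 83.2 CPM in the empty-vector library (-0.34, SE 0.17, edgeR's adjusted p = 0.346). Lrpprc, which stabilises mitochondrial messages, had 160 and 154 CPM in the fusion libraries, 203 CPM in the parental and 195 CPM in the empty-vector library (-0.34, SE 0.16, edgeR's adjusted p = 0.309). For both, the fusion libraries were the lowest. The polymerase gene itself, Polrmt, gave 0.17 (SE 0.18). Tfam, Lrpprc and Polrmt were chosen after their values were seen. The 2 most abundant genes of the list were the RNA-binding partner of Lrpprc, Slirp, at -0.04 (SE 0.21), and the single-stranded DNA binding protein gene Ssbp1, at -0.16 (SE 0.22).

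Proteins of the mitochondrial ribosome, which translates the 13 messages, had a median of -0.11 over 78 genes, with 0 called and 2 at an unadjusted p under 0.05, both lower. The fusion values were the lowest for 29 of the 78 (37.2%) and the highest for 3 (3.85%), beside 29.0% and 21.3% of genes of at least 10 CPM. Fusion library 2 was below fusion library 1 for 68 of the 78, with a median of -0.24. The most abundant, Mrpl42 and Mrpl15, gave -0.22 (SE 0.18) and -0.29 (SE 0.17).

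Of 12 nuclear regulators of respiratory genes, 10 were tested and 0 called (1 lower at an unadjusted p under 0.05, Pprc1), with a median of 0.0037. The coactivator gene Ppargc1a was close to absent in all libraries, at a mean of 0.015 TPM. Pprc1, a related coactivator, had 251 and 220 CPM in the fusion libraries, 350 CPM in the parental and 318 CPM in the empty-vector library (-0.50, SE 0.17, edgeR's adjusted p = 0.169), and Nrf1, whose motif was searched above, gave -0.05 (SE 0.22). Of 23 genes of the tricarboxylic acid cycle and pyruvate dehydrogenase, which supply NADH and succinate, 0 were called, 2 were higher and 2 lower at an unadjusted p under 0.05, and the median was 0.02. The most abundant, Mdh2, the malate dehydrogenase of the mitochondrion, gave 0.28 (SE 0.21). DESeq2's Wald test called 0 genes in the lists of cytochromes, assembly factors, regulators and the tricarboxylic acid cycle, and 1 in that of the ribosome.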

How the data were processed

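The 4 libraries were made with a stranded kit for poly(A) RNA (labels' protocols). For each, the authors deposited expected counts, TPM, FPKM (not used) and effective lengths by gene, per the file headers. RSEM divides a read among the genes it matches, and 9.16% to 10.2% of the deposited expected counts are not whole. Per the submitters' processing notes, the tools were RSEM 1.3.3, STAR 2.7.10a and DESeq2 1.36.0, with build mm10 (GRCm38). No source used here gives the strand setting, the filters or the annotation release. Of 55401 identifiers, 55141 (99.5%) matched GENCODE vM21.

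After rounding, the counts went through edgeR 4.0.16 (R 4.3.3; TMM scaling, filterByExpr at a minimum count of 10, robust quasi-likelihood fit, two-sided), the 2 fusion against the 2 wild-type libraries. Each SE was taken from the test's F statistic, as the size of the log2 fold change over the root of F. The fit was tested on simulated data. Deposited TPM described levels and, as log2 of TPM plus 1 or plus 0.1, entered limma 3.58.1. Other alternatives were DESeq2 1.42.0 (Wald test and size factors), library totals, scaling without mitochondrial genes, other filters, each control alone, a non-robust fit, each library left out and, added after seeing the data, chromosome 1 copies summed with their genes. Shared 75-base windows were counted on GENCODE transcripts, as a share of the windows of all annotated transcripts of a gene. Python 3.11.15, pandas 2.3.3 and matplotlib 3.10.9 were used.

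The genes, the related lists and the markers were chosen with earlier results of these data known. Named genes were all those called, the extremes of log2 fold change and of level in each complex, all mitochondrial genes, the isoform families, and in related lists those called or else the 2 most abundant; 1 gene that the rule names is not reported here. Ndufs1, Ndufv1, Atp5a1, Cyct and Ppargc1a fall outside the rule and were chosen after their values were seen, as were the genes said so in the text. The list names Coa1 and Fastkd4 were not matched; Fastkd4 is another name of Tbrg4, which was.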

Additional observations from a re-analysis of the deposited data

How the results depend on the processing

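Under all alternatives run, 0 of the 105 genes were called lower in the fusion libraries. The count called higher, 1 as reported, was 2 with no filter and 2 with limma on log2 of TPM plus 1 (Cox8c joined Cox7a1), 0 against the empty-vector library alone, and 0 to 2 when each library was left out. The median log2 fold change of the nuclear genes, -0.02 as reported, ran from -0.11 to 0.10 over left-out libraries (0.10 without fusion library 2), on both sides of 0. That of the mitochondrial genes, -0.24, was -0.13 with limma under both pseudocounts and ran from -0.30 to -0.19 over left-out libraries. Without copies, the difference in their share of counts, -0.389 points as reported, ran from -0.441 to -0.337 over left-out libraries. With copies and all libraries it was -0.61 points. Calls in the list of mitochondrial DNA maintenance and transcription, 1 as reported, were 2 with no filter and with the DESeq2 Wald test, and 0 with library totals, a fit that is not robust, limma under both pseudocounts, either control alone, and each library left out. The mitochondrial ribosome had 1 call with no filter and 1 with the DESeq2 Wald test, against 0. No scaling moved the median of all genes by more than 0.1; the largest shift was 0.0861. Where a group is left with 1 library, it is assumed to vary like the other group. The causes were not tested. Of 366 settings of single genes, 356 kept their direction where called and their side of the threshold, 5 gained a call and 5 lost one, and 0 of these called values changed sign. No paired analysis was possible because only the fusion group has numbered replicates.

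With 2 libraries a group, the median SE over the set was 0.20 on the log2 scale. The smallest change that could be called lay well above that size. Tefm, with an SE of 0.26, was only just called at -1.30 (edgeR's adjusted p = 0.0492). Values well above 0.20 thus fell short of the threshold. Among them were mt-Co1 with its copy, at -0.49 (edgeR's adjusted p = 0.177), and Ndufa8, at 0.43 (edgeR's adjusted p = 0.351). A gene that was not called may therefore still have changed. Low isoforms rest on few counts, and 6 mitochondrial genes on how reads were shared with chromosome 1. For 12 nuclear genes, more than 10% of the windows were shared with other transcripts, so their levels are uncertain too. The share is taken over all annotated transcripts of a gene, so long transcripts can lower it, and other genes may be affected. Atp5l is not among the 12, with 320 of 6512 windows shared (4.91%) at an effective length of 474 bases in fusion library 1. Its pseudogene Gm10221 nevertheless held more counts than the gene in some libraries.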
